A study of Mus musculus with 24 samples.

Results

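The vesicle release and neuronal cytoskeleton families are the proteins that load, dock and fuse secretory vesicles, together with the microtubule, intermediate filament and membrane skeleton proteins that give a neuron its shape. Their genes were taken by symbol from the RNA sequencing tables of P19 cells, a mouse embryonal carcinoma line that turns into neurons and other cell types when exposed to retinoids. A symbol pattern of 42 family names was run over all genes listed in at least 1 of 23 tables, and it found 50 members among 1753 genes. The pattern used no measured value beyond being listed, but the members were chosen with earlier results of these data known. The name fits most members, but the symbols also brought in 10 keratins, which are the intermediate filaments of epithelium, and 2 DNA methyltransferases, Dnmt3b and Dnmt3l.

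The series holds 24 samples of 1 library each. Wild-type (WT) P19 cells received all-trans retinoic acid (ATRA, which activates every retinoic acid receptor) at 1 µM, the RARα agonist BMS753 at 1 µM, the RARβ agonist BMS641 together with the RARγ agonist BMS961 at 0.1 µM each (BMS641+BMS961, the combination), or ethanol (EtOH), the vehicle, and were taken at days 2, 4 and 10. WT cells with BMS961 alone at 0.1 µM were taken at day 10. The lines raraKO, rarbKO and rargKO, in which CRISPR/Cas9 cutting had put a puromycin resistance cassette into Rara, Rarb or Rarg, were taken at day 10. The raraKO line received ATRA, BMS961, or BMS641+BMS961. The rarbKO line received these and BMS753, and the rargKO line received ATRA, BMS753, BMS641, or BMS641+BMS961, all at the doses above. Day 10 cells had 4 d of ligand followed by 6 d in Neurobasal medium with N2 and with B27 lacking vitamin A.

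Every table compared 1 library with the same library of WT cells after 2 d of EtOH, so the comparisons share their control, and a day 10 value holds the change of medium and of culture time as well as the ligand. The mutant lines were not compared with vehicle-treated cells of their own, and in those lines genotype and ligand cannot be told apart from this control alone. The tables did not list Rara, Rarb or Rarg, so whether a line had lost its receptor was not checked here. The study itself measured each receptor by quantitative PCR in WT and mutant cells with ATRA. With 1 library per condition there was no replicate check, and no test between conditions was made. Whether a mutant line was 1 clone is not given in the sources used here.

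All values below are the authors' log2 fold changes. The tables list only genes with a p-value under 0.01, and a gene that is not listed is not shown to be unresponsive. In the day 10 tables, the lowest value in size ran from 2.71 in rarbKO cells with BMS641+BMS961 to 4.73 in WT cells with ATRA, so that a moderate change could be listed in the first and missed in the second. A member was called up-regulated over a log2 fold change of 2 and down-regulated below the same value in the other direction, which is a 4-fold change. All 217 member values passed this limit. The standard error (SE) of a value was worked out from the fold change and its p-value. It ran from 0.70 to 2.71 on the log2 scale with a median of 1.86, and it comes from a model without replicates. Read counts were not used here, so levels and depth are unknown. In bulk RNA, a larger share of cells of a type and more RNA per cell cannot be told apart.

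A synaptic vesicle is brought to the membrane by Rab3 proteins and their effector rabphilin, and it fuses through SNARE proteins when synaptotagmins bind calcium. Neuropeptides leave the cell from dense core granules, which contain chromogranins and secretogranins. Newly born neurons express doublecortin and the growth cone protein Gap43, and as the neurite grows its microtubules are held by Tubb3, tau (Mapt) and Map2. P19 cells have long been used as a model of this step from a pluripotent cell to a neuron.

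Of the 6 members listed in at least 9 tables, Nsg2, Dcx, and Dnmt3b had a promoter in the RefSeq table, and the others, Gap43, Mapt, and Krt17, did not. The 250 bases before the first start site of each are printed 5′ to 3′ on the gene's strand, since Nsg2 and Dcx were higher in 11 and 10 tables and Dnmt3b was lower in 13. They are in build GRCm38.p6, at chr11:32000169-32000418 (plus strand) for Nsg2, at chrX:143933220-143933469 (minus strand) for Dcx, and at chr2:153649199-153649448 (plus strand) for Dnmt3b. Capitals mark an E-box CAGATG in Nsg2 and a TATAAA in Dcx, and nothing is marked in Dnmt3b.
Nsg2: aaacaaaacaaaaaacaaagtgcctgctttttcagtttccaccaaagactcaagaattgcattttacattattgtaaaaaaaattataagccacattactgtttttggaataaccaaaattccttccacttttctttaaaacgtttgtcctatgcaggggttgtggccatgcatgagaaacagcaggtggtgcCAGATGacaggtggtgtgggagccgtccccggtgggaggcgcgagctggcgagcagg
Dcx: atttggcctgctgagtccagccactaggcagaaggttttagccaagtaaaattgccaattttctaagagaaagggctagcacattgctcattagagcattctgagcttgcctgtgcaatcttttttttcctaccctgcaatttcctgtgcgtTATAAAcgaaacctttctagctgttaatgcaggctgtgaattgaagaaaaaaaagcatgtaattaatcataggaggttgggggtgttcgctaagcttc
Dnmt3b: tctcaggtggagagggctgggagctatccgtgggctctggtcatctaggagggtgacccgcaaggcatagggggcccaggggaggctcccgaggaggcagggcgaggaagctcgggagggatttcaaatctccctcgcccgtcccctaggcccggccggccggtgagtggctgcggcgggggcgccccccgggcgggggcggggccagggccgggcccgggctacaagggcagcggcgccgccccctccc
RefSeq gave 46 promoter windows for 35 of the members, each from 250 bases before to 50 bases after a start site, and 15 members had none. Searched on both strands, the E-boxes CAGCTG or CAGATG, the kind of site that neuronal basic helix-loop-helix factors can bind, were in 24 of the 46 windows (52.2%) and in 30.6% of all 32851 windows. The 21 members with such a site were not all neuronal. Krt14, Krt5, Krt8, Dnmt3l, and Rab17 were among them, as were Nsg2, Rph3a, and Syt1. TATAAA was in 6 member windows (13.0%) and in 13.6% of all. The core of the site of the neuronal repressor REST, searched as AGCACC and GGACAG with 2 bases between, was in no member window and in 0.0517% of all. Repeats of a receptor site (AGGTCA, also with GGTTCA in its place, with GGGTCA in its place, or with AGTTCA in its place) in 1 direction with 5, 2 or 1 bases between were in no member window either, against 0.0974%, 0.268%, and 0.222% of all windows. At shares this low, no match among 46 windows is the usual outcome, so these absences do not show that the members lack such sites. Windows of 1 gene overlap, and a match is a description of letters only. The E-box and TATAAA searches were added after the data were seen.

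Most members were higher than in the control. Up-regulation in at least 1 table was seen for 39 of the 50 members (78%), where 64.9% of all 1753 genes were up-regulated in at least 1. Down-regulation in at least 1 table was seen for 12 members (24%), against 34.6% of all genes. Only Sncb was in both groups. Of the members, 11 were listed in 1 table, 20 in at least 5 and 4 in at least 10, the last being Dnmt3b, Nsg2, Dcx and Gap43. No member of 18 of the 42 families was listed, among them the synapsins, the Snap and Vamp SNARE proteins, the Rims, Unc13, Bsn, and Pclo proteins of the active zone, the kinesins, and Gfap, the intermediate filament of astrocytes. By quantitative PCR, the study reported Gfap expression in WT cells with ATRA, with BMS753 and with the combination.

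**Figure D1:**
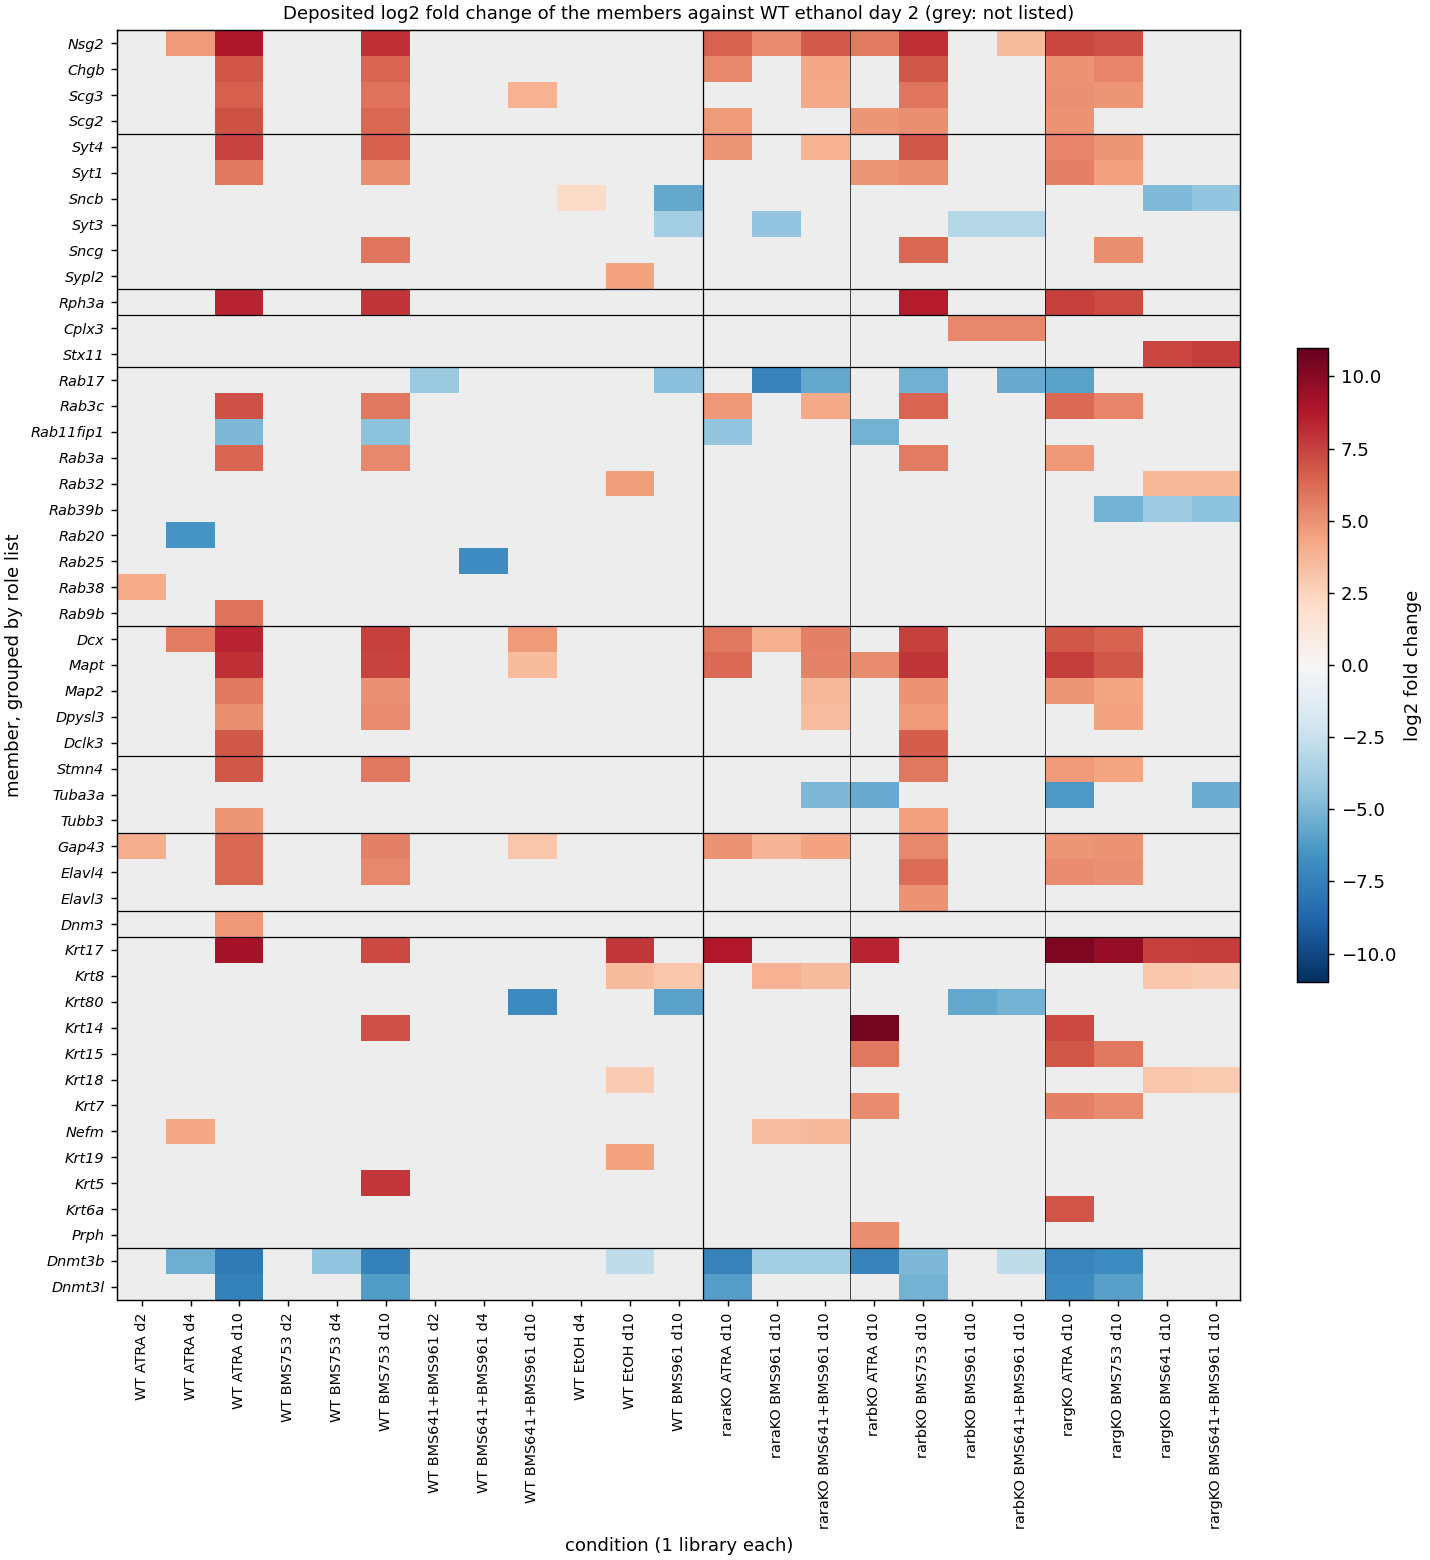
Log2 fold change of 49 of the 50 members (rows, grouped by role) in the 23 tables (columns, 1 library each against WT cells with EtOH at day 2), with red for higher, blue for lower and grey for not listed. The red columns are WT, rarbKO and rargKO cells with ATRA or BMS753 at day 10, and, for fewer members, raraKO cells and rarbKO cells with ATRA.

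In WT cells, few members were listed before day 10. With ATRA, 2 members were up-regulated at day 2, 3 at day 4, and 21 at day 10. These are 4%, 6%, and 42% of the members, beside 5.65%, 10.2%, and 22.5% of all genes. With BMS753, no member was up-regulated at day 2 or at day 4, where 6.39% and 8.33% of all genes were, and 20 members (40%) were at day 10, where 21.8% of all genes were. With BMS641+BMS961, no member was up-regulated at days 2 and 4, where 3.71% and 2.22% of all genes were, and 4 members (8%) were at day 10, where 9.87% of all genes were. With EtOH, 1 member was up-regulated at day 4 (1.65% of all genes) and 6 members (12%) at day 10 (9.53% of all genes). With BMS961 alone, 1 member (2%) was up-regulated at day 10, beside 8.16% of all genes. At a p-value limit of 0.001 the ATRA counts at days 2, 4 and 10 were 0, 0 and 9, beside 0.285%, 2.51%, and 5.36% of all genes, and the BMS753 count at day 10 was 4, beside 6.22%. The members' share was thus, at the limit of the tables, above that of all genes with ATRA and BMS753 at day 10, and below it at days 2 and 4 with each of the ligands.

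In the mutant lines at day 10, the libraries with ATRA had 9 up-regulated members in raraKO cells (18%, beside 19% of all genes), 9 in rarbKO cells (18%, beside 20.5%) and 20 in rargKO cells (40%, beside 21.4%). Those with BMS753 had 20 in rarbKO cells (40%, beside 22.3%) and 18 in rargKO cells (36%, beside 19.9%). Those with BMS641+BMS961 had 12 in raraKO cells (24%, beside 16.8%), 2 in rarbKO cells (4%, beside 8.27%) and 5 in rargKO cells (10%, beside 8.61%). Those with BMS961 had 5 in raraKO cells (10%, beside 10.9%) and 1 in rarbKO cells (2%, beside 7.02%), and that with BMS641 had 5 in rargKO cells (10%, beside 8.50%). Of the 5 in rargKO cells with BMS641, and of the 5 with the combination, 1 was left without the members that were also up-regulated with EtOH in WT cells at day 10. The same removal was not made among all genes. The share was near or below that of all genes in raraKO and rarbKO cells with ATRA.

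**Figure D2:**
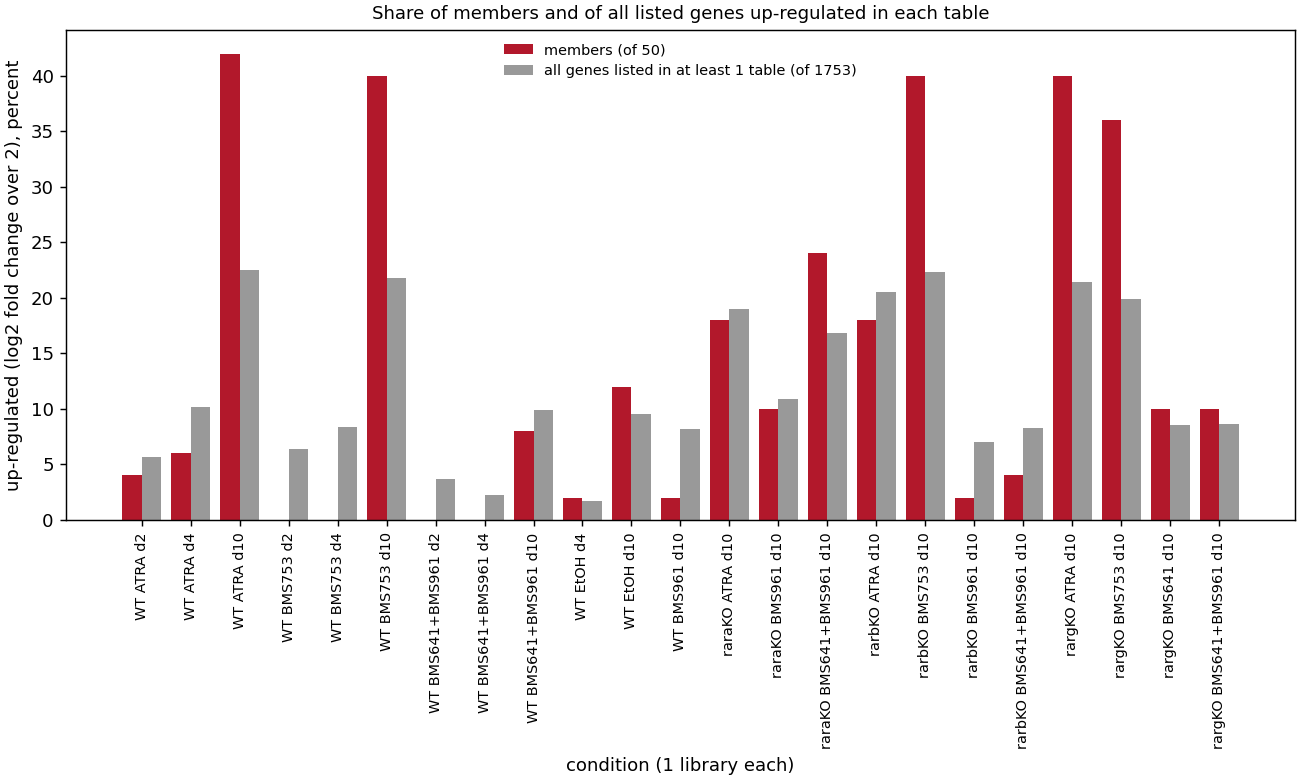
Percent of the 50 members (red) and of all 1753 listed genes (grey) with a log2 fold change over 2 in each table of 1 library. The red bar reaches 36 to 42 percent in 5 tables, those of WT and rargKO cells with ATRA or BMS753 and of rarbKO cells with BMS753 at day 10, beside grey bars of 19.9 to 22.5 percent.

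The granule and endosome genes were among the members most often higher. All 4, Nsg2, Chgb, Scg2, and Scg3, were up-regulated and none was down-regulated. Nsg2, an endosomal membrane protein of neurons (mm9 chr11:31900463-31959202, plus strand), was listed in 11 tables with SEs of 1.35 to 2.23. In WT cells its log2 fold change was 4.66 with ATRA at day 4, 8.86 with ATRA at day 10 and 8.07 with BMS753 at day 10. In the mutant lines with ATRA it was 6.46 in raraKO, 5.69 in rarbKO, and 7.38 in rargKO cells. BMS753 gave 8.07 in rarbKO and 7.09 in rargKO cells. In raraKO cells it was 6.78 with BMS641+BMS961 and 5.22 with BMS961. The lowest value was 3.51, in rarbKO cells with BMS641+BMS961, and Nsg2 was not listed in WT cells with that combination, with BMS961, or with EtOH.

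The granule proteins themselves were higher with ATRA and BMS753 in WT cells too. Chgb (chromogranin B, mm9 chr2:132607014-132620815, plus strand) was 6.89 with ATRA and 6.43 with BMS753 in WT cells at day 10, 5.28 with ATRA and 4.28 with BMS641+BMS961 in raraKO cells, 6.80 with BMS753 in rarbKO cells, and 4.96 with ATRA and 5.41 with BMS753 in rargKO cells, with SEs of 1.50 to 2.07. Scg2 (secretogranin II, the source of the peptide secretoneurin) was 7.02 with ATRA and 6.32 with BMS753 in WT cells, 4.67 in raraKO, 4.82 in rarbKO, and 4.96 in rargKO cells with ATRA, and 5.13 in rarbKO cells with BMS753. Scg3 (secretogranin III, which binds chromogranins to the granule membrane) was 6.60 with ATRA, 5.93 with BMS753, and 3.85 with BMS641+BMS961 in WT cells, 4.14 with the combination in raraKO cells, 5.87 with BMS753 in rarbKO cells, and 5.05 with ATRA and 4.85 with BMS753 in rargKO cells. Scg3 was the single vesicle gene of the members that was up-regulated by the combination in WT cells.

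The calcium sensors did not all move one way. Syt1, the sensor of fast transmitter release, and Syt4, a synaptotagmin of granules and dendrites, were higher in every table that listed them. Syt1 was 5.77 with ATRA and 5.12 with BMS753 in WT cells, 4.83 and 5.14 in rarbKO cells, and 5.51 and 4.50 in rargKO cells, all at day 10, and it was in no raraKO table. Syt4 was 7.41 with ATRA and 6.58 with BMS753 in WT cells, 4.85 with ATRA and 3.79 with BMS641+BMS961 in raraKO cells, 6.82 with BMS753 in rarbKO cells, and 5.35 with ATRA and 4.89 with BMS753 in rargKO cells. Syt3, a sensor of high calcium affinity, was lower in all 4 of its tables, and none of these was an ATRA or a BMS753 library. It was -3.71 in WT, -4.35 in raraKO, and -3.15 in rarbKO cells with BMS961, and -3.13 in rarbKO cells with BMS641+BMS961, with SEs of 1.19 to 1.49. The smallest sizes that the day 10 tables of ATRA and BMS753 hold, 4.17 to 4.73, lie above most of these. A fall of such a size could be missed there.

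Among the synucleins, which bind vesicle membranes, Sncg was higher with BMS753 alone, at 5.93 in WT, 6.33 in rarbKO, and 5.14 in rargKO cells, and it was in no ATRA table. Sncb was 2.15 in WT cells with EtOH at day 4, the smallest member value in size (SE 0.70), and it was lower at day 10, at -5.61 in WT cells with BMS961 and at -4.87 and -4.30 in rargKO cells with BMS641 and with BMS641+BMS961. Sypl2, a synaptophysin relative known from skeletal muscle, was at 4.46 in WT cells with EtOH at day 10 and nowhere else.

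Rph3a, or rabphilin, which binds Rab3 on the vesicle (mm9 chr5:121390511-121459527, minus strand), had the highest values of the release machinery. It was 8.38 with ATRA and 7.89 with BMS753 in WT cells, 8.62 with BMS753 in rarbKO cells, and 7.51 with ATRA and 7.18 with BMS753 in rargKO cells, with SEs of 2.54 to 2.63. It was in no raraKO table. Only 2 SNARE genes or partners were listed, and neither was in a table of ATRA or BMS753. Cplx3, a complexin known from ribbon synapses, was 5.25 with BMS961 and 5.30 with BMS641+BMS961 in rarbKO cells. Stx11, a syntaxin known from immune cells, was 7.37 with BMS641 and 7.64 with BMS641+BMS961 in rargKO cells, where it ranked 21 of the 151 up-regulated genes with the combination. Each of these was listed in 1 line only.

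The 10 Rab genes split evenly, with 5 up-regulated and 5 down-regulated in at least 1 table. The synaptic vesicle Rabs were on the higher side. Rab3a was 6.38 with ATRA and 5.29 with BMS753 in WT cells, 5.66 with BMS753 in rarbKO cells, and 4.79 with ATRA in rargKO cells. Rab3c (mm9 chr13:110844395-111071109, minus strand) was 7.08 with ATRA and 5.83 with BMS753 in WT cells, 4.73 with ATRA and 4.18 with BMS641+BMS961 in raraKO cells, 6.39 with BMS753 in rarbKO cells, and 6.24 with ATRA and 5.36 with BMS753 in rargKO cells. Rab9b, of the late endosome, was 5.96 in WT cells with ATRA at day 10 alone. The melanosome Rabs were apart from these, with Rab38 at 4.04 in WT cells with ATRA at day 2 and Rab32 at 4.61 in WT cells with EtOH, 3.66 in rargKO cells with BMS641 and 3.61 in rargKO cells with BMS641+BMS961 at day 10.

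The Rab genes known from epithelial transport were on the lower side. Rab17 (mm9 chr1:92854710-92866238, minus strand) was down-regulated in 7 tables over all 4 lines, at -4.10 in WT cells with BMS641+BMS961 at day 2, -4.61 in WT cells with BMS961, -7.38 with BMS961 and -5.64 with the combination in raraKO cells, -5.25 with BMS753 and -5.52 with the combination in rarbKO cells, and -5.92 with ATRA in rargKO cells, with SEs of 1.58 to 2.52. The value in raraKO cells with BMS961 ranked 12 of 151 down-regulated genes. Rab11fip1, an effector of the recycling Rab11 proteins, was -4.91 with ATRA and -4.49 with BMS753 in WT cells, -4.35 with ATRA in raraKO cells, and -5.16 with ATRA in rarbKO cells. Rab25, a recycling Rab of epithelium, was -6.85 in WT cells with BMS641+BMS961 at day 4, and Rab20 was -6.51 in WT cells with ATRA at day 4. Rab39b, a Rab of neurons, was listed in the rargKO line only, and was lower there, at -5.20 with BMS753, -4.03 with BMS641 and -4.55 with BMS641+BMS961. Of the 4 epithelial markers that were looked up, Cdh1, Cldn6 and Esrp1 were down-regulated in 7, 3 and 7 tables and Epcam was not listed. Cdh1 and Esrp1 were lower wherever Rab11fip1 was. Most tables with a lower Rab17 listed none of the 4 markers. These were WT cells with the combination at day 2 and with BMS961, raraKO cells with BMS961 and with the combination, and rarbKO cells with the combination. Their part in the Rab values was not tested.

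The microtubule binding genes were higher wherever they were listed. All 5, Dcx, Mapt, Map2, Dpysl3, and Dclk3, were up-regulated, and none was down-regulated. Dcx, or doublecortin, the microtubule protein of newborn neurons (mm9 chrX:140290385-140367854, minus strand), was listed in 10 tables with SEs of 1.43 to 2.19. In WT cells it was 5.64 with ATRA at day 4, and at day 10 it was 8.35 with ATRA, 7.56 with BMS753, and 4.67 with BMS641+BMS961. In raraKO cells it was 5.84 with ATRA, 5.55 with the combination, and 3.91 with BMS961. It was 7.51 with BMS753 in rarbKO cells, and 6.87 with ATRA and 6.51 with BMS753 in rargKO cells. Dcx was thus listed for every raraKO library and for 1 of the 4 rarbKO libraries.

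Mapt, which encodes the axonal protein tau (mm9 chr11:104092704-104193404, plus strand), was 8.05 with ATRA, 7.45 with BMS753, and 3.46 with BMS641+BMS961 in WT cells at day 10, with SEs of 1.32 to 2.16 over its 9 tables. It was 6.21 with ATRA and 5.42 with the combination in raraKO cells, 5.18 with ATRA and 7.82 with BMS753 in rarbKO cells, and 7.58 with ATRA and 6.84 with BMS753 in rargKO cells. Map2, the dendritic counterpart that the study stained for, was 5.82 with ATRA and 5.06 with BMS753 in WT cells, 3.69 with the combination in raraKO cells, 4.91 with BMS753 in rarbKO cells, and 4.86 with ATRA and 4.36 with BMS753 in rargKO cells. Tau was listed in WT cells with the combination and Map2 was not. By TUBB3 and MAP2 staining, the study reported neuronal differentiation in WT cells with that combination. Staining of protein and a listing of RNA are unlike measures. The value of Map2 in raraKO cells with the combination is below the smallest value that was listed for raraKO cells with ATRA, 4.17.

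The remaining members of this group were listed less widely. Dpysl3, a collapsin response mediator of the growing axon, was 5.14 with ATRA and 5.17 with BMS753 in WT cells, 3.40 with the combination in raraKO cells, 4.71 with BMS753 in rarbKO cells, and 4.40 with BMS753 in rargKO cells. Dclk3, a kinase of the doublecortin family, was 6.80 in WT cells with ATRA and 6.64 in rarbKO cells with BMS753.

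Among the tubulins, Tubb3, the neuronal β-tubulin that the study stained for (mm9 chr8:125935324-125945915, plus strand), was listed in 2 tables, at 4.87 (SE 1.85) in WT cells with ATRA and 4.49 (SE 1.72) in rarbKO cells with BMS753. These values are close to the smallest listed in those tables, 4.73 and 4.42. Stmn4, a neuronal stathmin that binds free tubulin, was 6.83 with ATRA and 5.83 with BMS753 in WT cells, 5.83 with BMS753 in rarbKO cells, and 4.69 with ATRA and 4.32 with BMS753 in rargKO cells. Tuba3a, an α-tubulin known from testis, was listed in the mutant lines only, and was lower there, at -4.98 in raraKO cells with the combination, -5.58 in rarbKO cells with ATRA, and -6.34 with ATRA and -5.44 with the combination in rargKO cells. Tuba3a has near-identical copies in the genome, so its value is uncertain.

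The growth cone protein Gap43 (mm9 chr16:42248555-42340764, minus strand) was 3.96 (SE 1.46) after 2 d of ATRA in WT cells, the earliest value of the neuronal members. At day 10 it was 6.30 with ATRA, 5.54 with BMS753, and 3.07 with the combination in WT cells. In raraKO cells it was 4.96 with ATRA, 4.39 with the combination, and 3.71 with BMS961. It was 5.30 with BMS753 in rarbKO cells, and 4.82 with ATRA and 4.97 with BMS753 in rargKO cells. Gap43, Dcx, and Nsg2 were the members that were higher with each of the 3 treatments of raraKO cells.

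The neuronal RNA binding gene Elavl4 (HuD, which stabilises the mRNA of Gap43 among others) was 6.31 with ATRA and 5.25 with BMS753 in WT cells, 6.16 with BMS753 in rarbKO cells, and 5.16 with ATRA and 5.04 with BMS753 in rargKO cells. Its relative Elavl3 was at 4.98 in rarbKO cells with BMS753 alone. Dnm3, a dynamin of the synapse, was at 4.77 in WT cells with ATRA alone, the last of the 395 up-regulated genes by value.

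**Figure D3:**
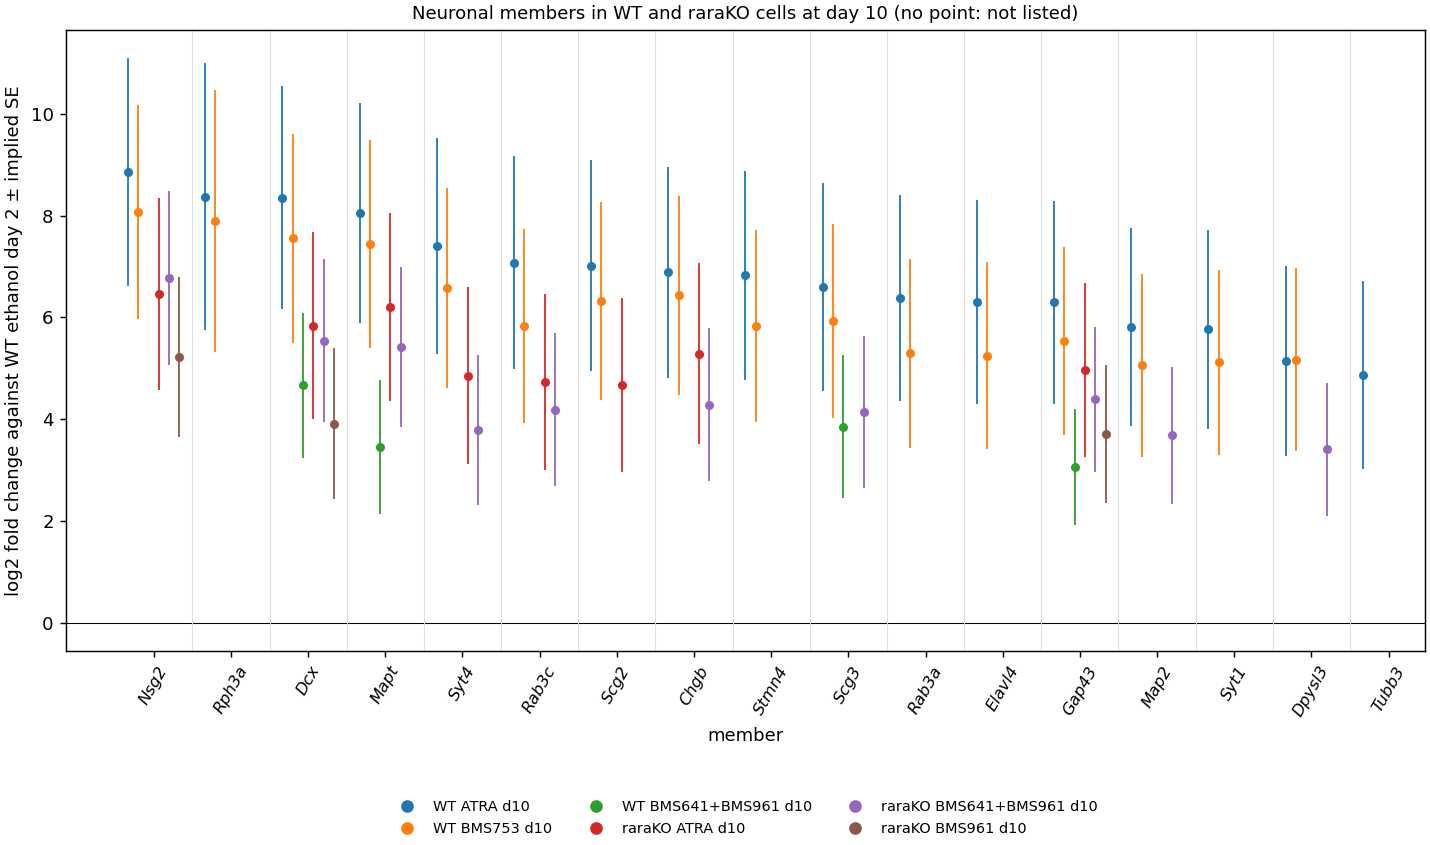
Log2 fold change of 17 neuronal members (x axis) at day 10 in WT and raraKO cells, each point 1 library against WT cells with EtOH at day 2, with bars of 1 implied SE and no point where a gene was not listed. Values in WT cells with ATRA or BMS753 run from 4.87 to 8.86, while WT cells with BMS641+BMS961 have points for Dcx, Mapt, Gap43, and Scg3 only.

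In WT cells, the values with ATRA ran above those with BMS753, both at 1 µM, for most members. Of the 17 members up-regulated in both day 10 tables, 16 were higher with ATRA and Dpysl3 was not. Over all 20 members listed in both, ATRA minus BMS753 ran from -1.25 to 1.89 on the log2 scale, with a median of 0.73. The lowest difference was that of Dnmt3l, at -7.42 and -6.17, and the highest that of Krt17, at 9.15 and 7.26. In rargKO cells the difference over 18 members ran from -0.98 to 1.03, with a median of 0.37. In rarbKO cells, 20 members were up-regulated with BMS753 and 9 with ATRA. Those listed for both were Mapt, at 5.18 with ATRA and 7.82 with BMS753, Nsg2, at 5.69 and 8.07, Scg2, at 4.82 and 5.13, Syt1, at 4.83 and 5.14, and Dnmt3b, at -7.37 and -4.98. Chgb, Dcx, Gap43, Rph3a, Syt4, and Rab3c were listed for BMS753 and not for ATRA in that line. All 20 differences in WT cells and all 18 in rargKO cells were smaller than both SEs of their values. In rarbKO cells, 3 of the 5 were larger than both. The smallest size listed was higher with ATRA than with BMS753 in each line, at 4.73 and 4.46 in WT cells. It was 4.61 and 4.42 in rarbKO cells, and 4.66 and 4.24 in rargKO cells. How far these limits shaped the differences was not tested. The same differences over all genes were not worked out, so a shift of the whole library cannot be told from one of the members. Each of these is a difference of single libraries, and no SE of such a difference is known.

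**Figure D4:**
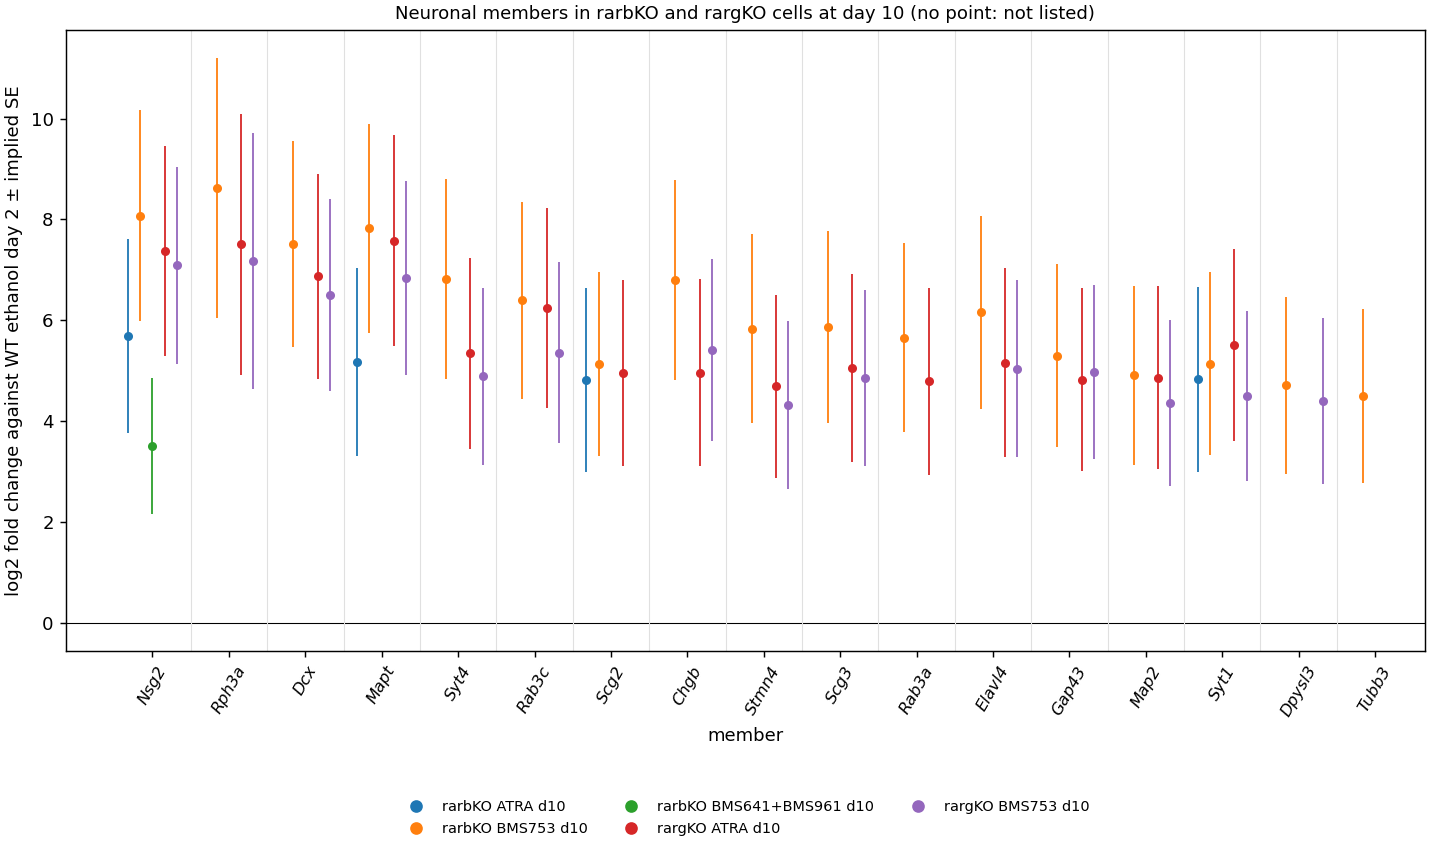
Log2 fold change of the same 17 members (x axis) at day 10 in rarbKO and rargKO cells, each point 1 library against WT cells with EtOH at day 2, with bars of 1 implied SE and no point where a gene was not listed. The rarbKO points are nearly all from BMS753, and with ATRA only Nsg2, Mapt, Scg2, and Syt1 have a point, at 4.82 to 5.69, and with the combination only Nsg2, at 3.51.

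Under ATRA, the rarbKO library also held the highest keratin value and high collagen values. Of 6 mesenchymal and smooth muscle markers, Col1a1 was 9.19, Col1a2 9.66, and Col3a1 11.90 there, the highest of their values over all tables, and Acta2, Tagln, and Myl9 were not listed. With ATRA in the other lines, Col1a1, Col1a2, and Col3a1 were 5.20, 7.19, and 10.19 in WT, 7.35, 8.74, and 10.50 in raraKO, and 7.11, 8.78, and 11.71 in rargKO cells, where 20 members were up-regulated. Of the astrocyte markers, S100b was 6.90 and Aldh1l1 -6.73 in rarbKO cells with ATRA. The part of these cell types in the members' values was not tested.

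Members up-regulated in both lines were lower in raraKO than in WT cells with ATRA, and higher with BMS641+BMS961. With ATRA, 12 members were listed in both lines, and WT minus raraKO ran from -1.32 to 2.56 with a median of 1.72. All 9 members up-regulated in both were higher in WT cells, with Dcx at 8.35 and 5.84, Nsg2 at 8.86 and 6.46, and Syt4 at 7.41 and 4.85. With BMS641+BMS961, the 4 members listed in both lines were all higher in raraKO cells. Mapt was 3.46 in WT and 5.42 in raraKO cells, Gap43 3.07 and 4.39, Dcx 4.67 and 5.55, and Scg3 3.85 and 4.14. A further 8 members were up-regulated with the combination in raraKO cells and not listed in WT cells, namely Nsg2, Chgb, Syt4, Rab3c, Map2, Dpysl3, Nefm, and Krt8. Of all genes, 16.8% were up-regulated with the combination in raraKO cells and 9.87% in WT cells. How many of all genes were so in raraKO cells and not listed in WT cells was not counted. Within raraKO cells, 6 of the 7 members up-regulated with both were higher with ATRA than with the combination, and Nsg2 was not, at 6.46 and 6.78. BMS961 alone gave lower values than the combination for Nsg2, at 5.22 and 6.78, for Gap43, at 3.71 and 4.39, and for Dcx, at 3.91 and 5.55. At the same dose of BMS961 in WT cells, none of these was listed. Between WT and raraKO cells, 5 of the 12 differences with ATRA and 1 of the 4 with the combination were larger than both SEs. Such differences over all genes were not worked out. The smallest sizes listed were 4.73 in WT and 4.17 in raraKO cells with ATRA, and 2.75 and 3.35 with the combination. A member listed in both tables had to pass both limits, and the limits differ in the same direction as the values. How far the limits shaped these differences was not tested.

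With BMS753, WT minus rarbKO ran from -2.49 to 1.19 over 19 members, with a median of -0.24, and Dnmt3b was at the lower end, at -7.47 and -4.98. WT minus rargKO ran from -2.37 to 1.69 over 18 members, with a median of 0.71, and Krt17 was at the lower end, at 7.26 and 9.63. With ATRA, WT minus rargKO ran from -1.09 to 2.14 over 18 members, with a median of 1.31. All of these tables share the control library, so the values are not independent of each other.

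Of the neuronal intermediate filaments, Nefm, the middle neurofilament, was 4.24 after 4 d of ATRA in WT cells, the smallest value in that table, and 3.41 with BMS961 and 3.53 with the combination in raraKO cells at day 10. Prph, or peripherin, known from peripheral neurons, was 5.15 in rarbKO cells with ATRA. Neither was in a BMS753 table, but the smallest sizes that those day 10 tables hold, 4.24 to 4.46, lie above the day 10 values of Nefm.

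The keratins fell into groups that were listed under different conditions. Of the 10, 9 were up-regulated in at least 1 table and Krt80 was down-regulated. They lie in the mouse keratin gene clusters, with Krt14, Krt15, Krt17, and Krt19 at mm9 chr11:99993072-100122343 and Krt18, Krt5, Krt6a, Krt7, Krt8, and Krt80 at mm9 chr15:101177875-101862457. Krt17, a keratin of basal and stressed epithelium, was up-regulated in 9 tables, the most of the keratins. It was 9.15 with ATRA, 7.26 with BMS753, and 7.82 with EtOH in WT cells at day 10. It was 8.78 in raraKO and 8.35 in rarbKO cells with ATRA. In rargKO cells it was 10.24 with ATRA, 9.63 with BMS753, 7.55 with BMS641, and 7.62 with BMS641+BMS961, where it ranked 13 of 375, 11 of 348, 22 of 149, and 22 of 151 up-regulated genes. Krt17 was thus listed in every rargKO library and in the vehicle library, with SEs of 2.42 to 2.70.

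Krt8, Krt18, and Krt19, keratins of simple epithelium, were listed with EtOH. Krt8 was 3.50 in WT cells with EtOH and 3.02 with BMS961, 3.81 with BMS961 and 3.50 with the combination in raraKO cells, and 3.07 with BMS641 and 2.82 with the combination in rargKO cells. Its partner Krt18 was 2.78 in WT cells with EtOH, and 3.05 and 2.92 in the same rargKO libraries. Krt19 was 4.41 in WT cells with EtOH alone. No table of ATRA or BMS753 listed any of these 3, and the smallest values that those day 10 tables hold, 4.17 to 4.73, lie above most of the values given here.

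Krt14, Krt5, Krt15, and Krt6a, keratins of stratified epithelium, and Krt7, of simple epithelium, were listed with ATRA or BMS753 alone, conditions in which the neuronal members were higher too. Krt14 was 10.56 (SE 2.71) in rarbKO cells with ATRA, the highest member value, where it ranked 18 of 359 up-regulated genes, and it was 7.07 in WT cells with BMS753 and 7.26 in rargKO cells with ATRA. Its partner Krt5 was 7.74 in WT cells with BMS753. Krt15 was 5.82 in rarbKO cells with ATRA, and 6.87 with ATRA and 5.84 with BMS753 in rargKO cells. Krt7 was 5.18 in rarbKO cells with ATRA, and 5.58 and 5.19 in the same rargKO libraries, and Krt6a, which has a near-identical neighbour and so an uncertain value, was 6.93 in rargKO cells with ATRA. Krt80 was -7.03 with BMS641+BMS961 and -5.86 with BMS961 in WT cells, and -5.66 with BMS961 and -5.17 with the combination in rarbKO cells. In rarbKO cells with ATRA, 4 of the 9 up-regulated members were keratins, and in WT cells with EtOH at day 10 it was 4 of 6. The other epithelial markers did not rise with these keratins. In rarbKO cells with ATRA, Cdh1 was -6.96, Cldn6 -6.05, and Esrp1 -6.05. In WT cells with BMS753, Cdh1 was -5.28 and Esrp1 -6.41, and in rargKO cells with ATRA, Esrp1 was -5.07. None of these markers was listed in rargKO cells with BMS753.

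**Figure D5:**
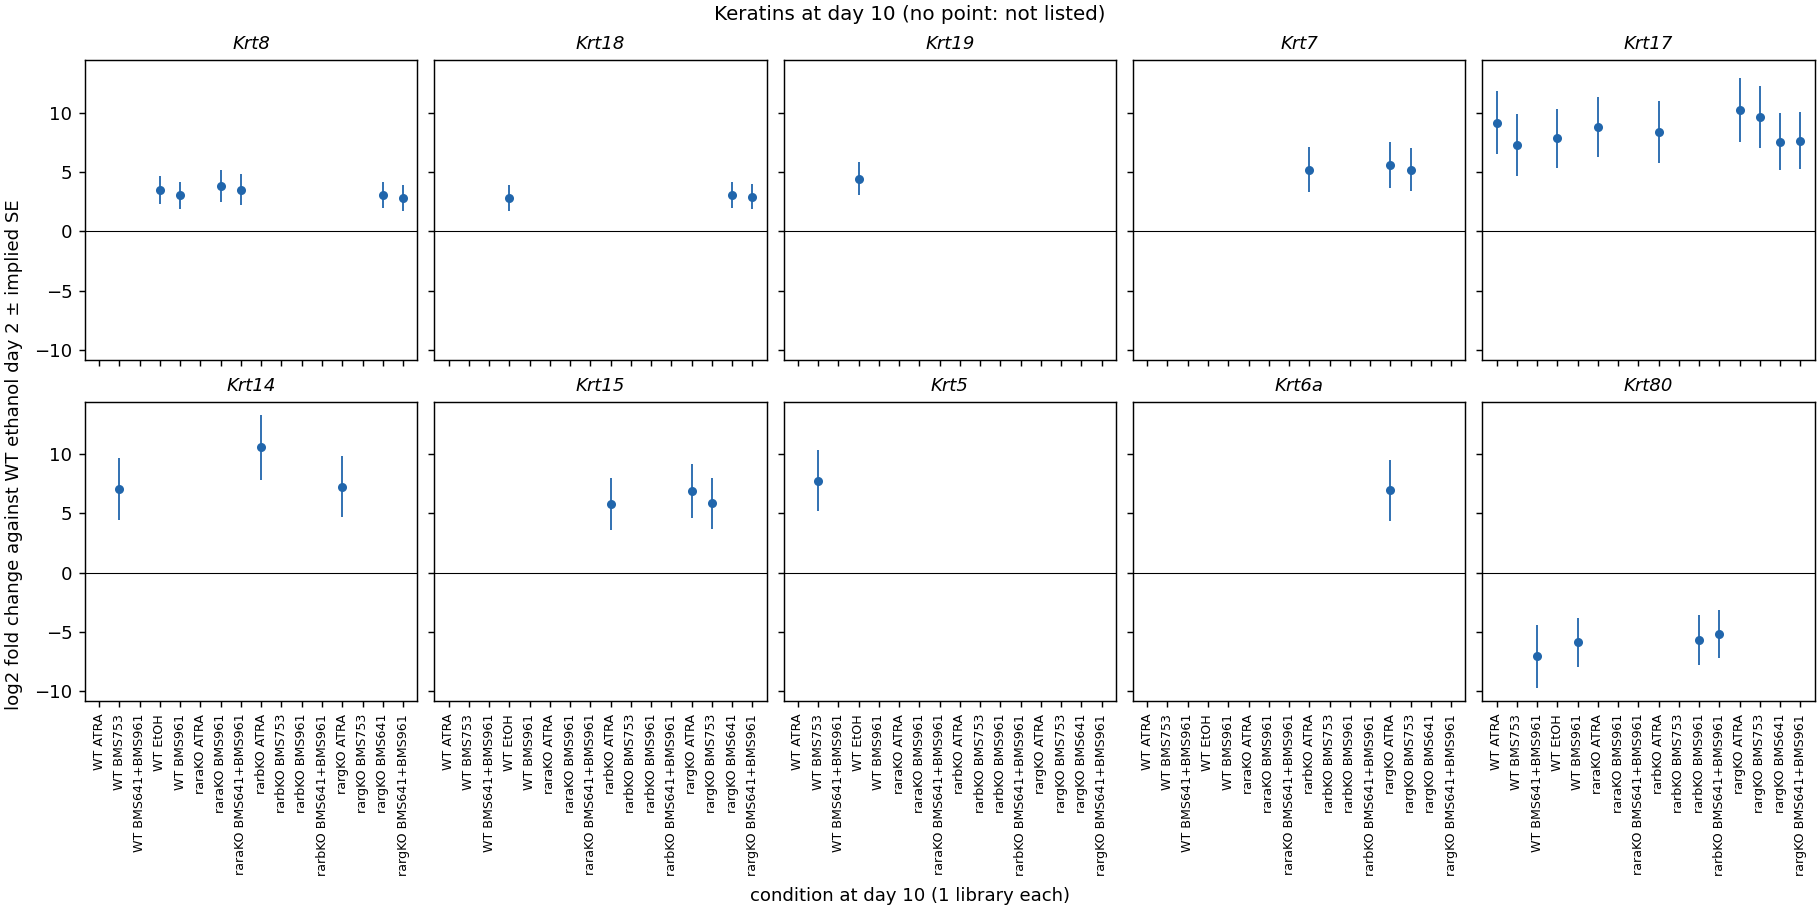
Log2 fold change of the 10 keratins at day 10, 1 panel per gene, each point 1 library against WT cells with EtOH at day 2, with bars of 1 implied SE and no point where a gene was not listed. Krt17 is present in 9 libraries at 7.26 to 10.24, and Krt80 lies below 0 in 4.

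The DNA methyltransferase genes were lower wherever they were listed. Dnmt3b, which sets new methylation marks in pluripotent cells (mm9 chr2:153475186-153513466, plus strand), was -5.37 with ATRA and -4.34 with BMS753 in WT cells at day 4. At day 10 it was -7.81 with ATRA, -7.47 with BMS753, and -2.77 with EtOH in WT cells. It was -7.38, -7.37, and -7.28 with ATRA in raraKO, rarbKO, and rargKO cells. With BMS753 it was -4.98 in rarbKO and -6.90 in rargKO cells. With BMS641+BMS961 it was -3.71 in raraKO and -2.78 in rarbKO cells, and with BMS961 it was -3.75 in raraKO cells. Its cofactor Dnmt3l was listed with ATRA or BMS753 alone, at -7.42 and -6.17 in WT cells, -6.10 with ATRA in raraKO cells, -5.18 with BMS753 in rarbKO cells, and -6.96 and -5.98 in rargKO cells. Of 8 markers of embryonal carcinoma cells, Pou5f1, Nanog, Tdgf1, and Utf1 were listed, and all were down-regulated, in 9, 13, 16, and 10 tables.

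Over time in WT cells with ATRA, 18 of the 23 members ever up-regulated were so at day 10 alone. Gap43 was up-regulated at days 2 and 10, Dcx and Nsg2 at days 4 and 10, Rab38 at day 2 alone and Nefm at day 4 alone. With BMS753, all 20 members were up-regulated at day 10 alone, and with BMS641+BMS961 all 4. More of all genes were up-regulated at day 10 too, with ATRA 22.5% beside 5.65% and 10.2% at days 2 and 4. The same shares were 21.8% beside 6.39% and 8.33% with BMS753, and 9.87% beside 3.71% and 2.22% with the combination. How many of all genes were up-regulated at day 10 alone was not counted. For the members up-regulated at 2 times the later value was the larger one, with Dcx at 5.64 and 8.35, Nsg2 at 4.66 and 8.86, and Gap43 at 3.96 and 6.30.

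Of 40 vesicle and cytoskeleton genes outside the families, such as transmitter transporters, priming factors, and adhesion proteins, 6 were listed, all up-regulated and none down-regulated. Slc17a6, the vesicular glutamate transporter VGLUT2, was up-regulated in 10 tables at 6.89 to 10.51, and in WT cells with BMS641+BMS961 it was 8.46. The presynaptic adhesion gene Nrxn3 was up-regulated in 10 tables at 4.75 to 7.99. Sncaip, a synuclein partner, was up-regulated in 4 tables at 4.94 to 5.50, and the filament gene Vim in 3 at 2.75 to 3.36. The other two were Slc32a1, the vesicular GABA transporter, and Nes, in 2 tables each.

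Of 6 neuronal markers that are no members, Slc17a6, Gria2, Gad1, Gad2, and Grin1 were listed, all up-regulated, and Rbfox3 was not. Gria2, an AMPA receptor subunit, was up-regulated in 9 tables at 8.13 to 11.67, among them all 3 of the raraKO line. Of 7 astrocyte markers Slc1a2 was up-regulated in 4 tables and S100b in 1, Aldh1l1 was down-regulated in 13 and Gja1 in 2, and Aqp4, Slc1a3, and Gfap were not listed. Of 5 markers of oligodendrocyte precursors only Pdgfra was listed, up-regulated in 15 tables at 6.97 to 13.09. These genes are on in other cells too, and Pdgfra is known from mesenchyme as well. Of the mesenchymal markers Col3a1 was up-regulated in 13 tables, Col1a2 in 11, Col1a1 in 8, Tagln in 8, and Acta2 in 3, while Tagln and Myl9 were down-regulated in WT cells with EtOH at day 4, at -2.17 and -2.48. In the study's own cell type lists, 16 of the 50 members (32%) were in the neuron list, beside 18.8% of all 1753 genes. That list also held Krt18 and Krt80. The astrocyte, GABAergic, and glutamatergic lists held 4% of the members each, beside 5.59%, 4.45%, and 3.88% of all genes, the dopaminergic list 4% beside 7.30%, and the oligodendrocyte precursor list 2% beside 5.70%.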

How the data were processed

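Poly(A) RNA of P19 cells was sequenced, with 1 library per condition, and groups were taken from the sample titles. The authors aligned reads to mm9 using Bowtie2 2.1.0, counted them per gene with featureCounts and compared each library with that of WT cells after 2 d of EtOH with DESeq2. The deposited log2 fold changes and the deposited p-values are the authors' own comparisons, and the tables hold no other measure, so the log2 fold changes were used here as given and no p-value of a gene is printed. The authors' standard error, a score in log2 units, is deposited for WT cells with ATRA at day 2 alone. The SE given here is the absolute log2 fold change divided by the normal quantile of its two-sided p-value, and it differed from the deposited one by at most 4.27e-08 in relative terms.

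Members were matched by symbol, and counted beyond a log2 fold change of 2 without any test across conditions. The members and lists were chosen with earlier results of these data known. All members are in the counts, and the values of 1 of them are not reported here. Percentages of all genes refer to the 1753 genes listed in at least 1 table, since how many genes were tested is not given in the sources used here. Alternatives were thresholds of 3 and 1, a p-value limit of 0.001, matching without case, and the removal of member groups. The counting was checked on simulated data. Gene positions are from the mm9 annotation (48 of the 50 members matched), and promoter sequences from RefSeq on GRCm38.p6. Counts were made in Python 3.11.15 with scipy 1.17.1, numpy 2.4.6 and pandas 2.3.3, and plots in matplotlib 3.10.9. Depth is unknown, and the WT library with EtOH at day 2 was not analysed here on its own.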

Additional observations from a re-analysis of the deposited data

How the results depend on the processing

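Counts of up-regulated members could not change with a threshold of 1, since all 217 listed member values were already beyond 2. They did not change with matching without case. A threshold of 3 gave 0 in WT cells with EtOH at day 4 and 3 in rargKO cells with BMS641+BMS961. A p-value limit of 0.001 reduced the counts most. The share of all genes at this limit was worked out only for WT cells with ATRA and, at day 10, with BMS753. The other counts at this limit therefore cannot be set beside all genes. In WT cells it left 0 with ATRA at day 2, 0 at day 4, and 9 at day 10, then 4 with BMS753, 0 with BMS641+BMS961 and 0 with BMS961 at day 10, and 0 with EtOH at days 4 and 10. In raraKO cells it left 3 with ATRA, 1 with BMS961, and 3 with the combination. In rarbKO cells it left 1 with ATRA, 6 with BMS753, 0 with BMS961, and 1 with the combination, and in rargKO cells 4 with ATRA, 4 with BMS753, 1 with BMS641, and 1 with the combination. Without keratins and DNA methyltransferases, a choice made after seeing the data, 38 members remained. Of these, 2 were up-regulated in WT cells with EtOH at day 10 and 0 in WT cells with BMS961. The count was 5 in rarbKO cells with ATRA, and 2 and 2 in rargKO cells with BMS641 and the combination. Without the members up-regulated by EtOH at day 10 it was 0 in WT cells with BMS961 and 1 and 1 in those rargKO libraries. Neither removal was made among all genes, so these counts cannot be set beside a share of all genes. The same holds for the threshold of 3. The alternatives select among the deposited values and do not alter them, so no value could change its direction. The planned count of members shared by WT cells with ATRA and another day 10 table was not run, since the tables share their control. No paired analysis was possible because each condition has 1 library and the labels carry no replicate numbers. For the same reason no replicate could be left out.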
